A study of Macaca mulatta with 43 samples.

Results

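The subunits of the mitochondrial respiratory chain and of ATP synthase are described here in the medial prefrontal cortex (PFC) of rhesus macaques, as mRNA levels on an expression array. Genes were taken by their symbols in the platform's probe table: NDUFA, NDUFB, NDUFC, NDUFS and NDUFV genes with a number, SDHA to SDHD, and symbols starting with UQCR, COX4 to COX8 or ATP5. Of 25317 annotated probesets, 97 carried 1 such symbol, and they stood for 58 of 14132 gene symbols. All 58 genes passed the filter on dim probesets, and each is represented by its probeset with the highest mean. Complex I contributed 25 genes, complex II 3, complex III 6, complex IV 9 and ATP synthase, also called complex V, 15. Another 12 probesets carried several symbols and were left out, and SDHD, COX4I1, COX5B, COX6A1, COX7A2L and ATP5F1A were not analysed here.

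The respiratory chain passes electrons from NADH (through complex I) and succinate (through complex II) to coenzyme Q, on through complex III and cytochrome c, and finally to oxygen at complex IV. Complexes I, III and IV pump protons across the inner mitochondrial membrane, and ATP synthase lets them flow back while it makes ATP. Most subunits are encoded in the nucleus and are measured here, while a small number are encoded by mitochondrial DNA. In cortex, this pathway supplies most of the ATP used by neurons to keep their ion gradients and synapses working.

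The 43 animals were adult male rhesus macaques aged 5 to 11 years, with 1 array per animal and RNA of 3 prefrontal areas pooled within each animal. After induction of drinking by schedule-induced polydipsia, 32 of them had open access to 4% (w/v) ethanol and water for 22 h per day over 1 year, and 11 controls received water and a maltose dextran solution with calories matched to a drinker. There were 11 drinkers and no control in cohort 4, 8 drinkers and 5 controls in cohort 5, 8 drinkers and 4 controls in cohort 7a, and 5 drinkers and 2 controls in cohort 7b. Drinking was voluntary, so the dose differed between animals, and the tissue was a mixture of neurons, glia and vessel cells.

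Cohorts 4 and 5 were run in 3 processing batches and cohorts 7a and 7b in 5 others, with another RNA extraction kit, so a comparison over all cohorts also spans batches. The values are robust multi-array average (RMA) values on the log2 scale, and a difference of -1 is a halved signal. The 3′ minus 5′ value of the actin control probesets, which rises when transcripts are truncated, lay between 0.75 and 0.87 in the 6 controls of cohorts 7a and 7b and between 0.76 and 1.71 in their 13 drinkers. In cohort 7a its difference was 0.45 (two-sided exact permutation test, n = 8 and 4, p = 0.00404, adjusted p = 0.0242 over 6 comparisons), which is the smallest p this test can give. In cohort 7b it was 0.32 (exact p = 0.190, where 0.0952 is the smallest possible), and in cohort 5 it was 0.04 (exact p = 0.737). The actin value itself lay far higher in cohort 5, at 4.24 to 4.74 in controls and 4.36 to 4.95 in drinkers. It was 4.31 to 4.83 in the drinkers of cohort 4. How this level bears on the differences within cohorts was not tested. The same value of the GAPDH control probesets differed by 0.18 in cohort 7a (exact p = 0.0242, adjusted p = 0.0726), by -0.14 in cohort 7b (exact p = 0.571) and by 0.08 in cohort 5 (exact p = 0.420). Fits with the RNA integrity number are given with the counts.

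Over all animals, 25 of the 58 subunit genes were lower in drinkers and none was higher. Falls were found in every complex, for 10 of 25 genes in complex I, 2 of 3 in complex II, 2 of 6 in complex III, 4 of 9 in complex IV and 7 of 15 in ATP synthase. The largest called fall was that of COX7A1 (by 24.0%), followed by those of NDUFA9 and NDUFB3. That order changed with processing batch as a block. The test was the two-class comparison of 32 drinkers with 11 controls by limma, with Benjamini-Hochberg adjustment over 24151 probesets and a threshold of 0.05. The share of subunit genes called lower was 43.1%, while 10.6% of all probesets were called lower, 5.57% higher and 16.2% in either direction. Among 1651 genes with a mean of 10 or more, the share called lower was 15.7%. The median difference was -0.15 over the subunit genes and -0.04 over all probesets, and 47 of the 58 differences were negative. At an unadjusted p under 0.05 the count was 35, against 31.3% of all probesets, and at an adjusted p under 0.01 it was 7, all lower, against 3.24%. In a tissue homogenate, fewer cells of a type and less RNA per cell cannot be told apart.

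These calls rested on the controls of cohorts 7a and 7b. Without control replicate 37 of cohort 7b, 8 of the subunit genes were called, among 1719 probesets in all. Without replicate 38 of that cohort the count was 9 (1748 in all), without both it was 0 (302 in all), and without control replicate 28 of cohort 7a it was 16 (2555 in all). Without the drinkers of cohort 4 it was 10 (2339 in all). With processing batch as a block, 29 were called lower and none higher, against 14.4% and 8.22% of all probesets. Among them were all 25 called without the block. In that fit the differences were -0.36 for NDUFB3 and for ATP5G1, -0.34 for COX7A1 and -0.27 for NDUFA9. With batch and the RNA integrity number both in the model, none of the subunit genes was called, against 0.0994% of all probesets lower and 0.662% higher (0.762% in all), and their median difference was -0.06, with 14 at an unadjusted p under 0.05, against 19% of all probesets. That fit lacks control replicate 37 of cohort 7b, which has no integrity number, and the batch block alone without this animal called 10 (1999 in all). With the integrity number but no batch term, 27 were called lower, against 18.5% of all probesets lower and 8.26% higher, and 19 of these were among the 25. This fit also lacks control replicate 37 of cohort 7b, without which the two-class comparison called 8. With cohort as a block, 33 were lower and 3 higher, against 21.5% and 11.8% of all probesets (33.3% in either direction).

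**Figure D1:**
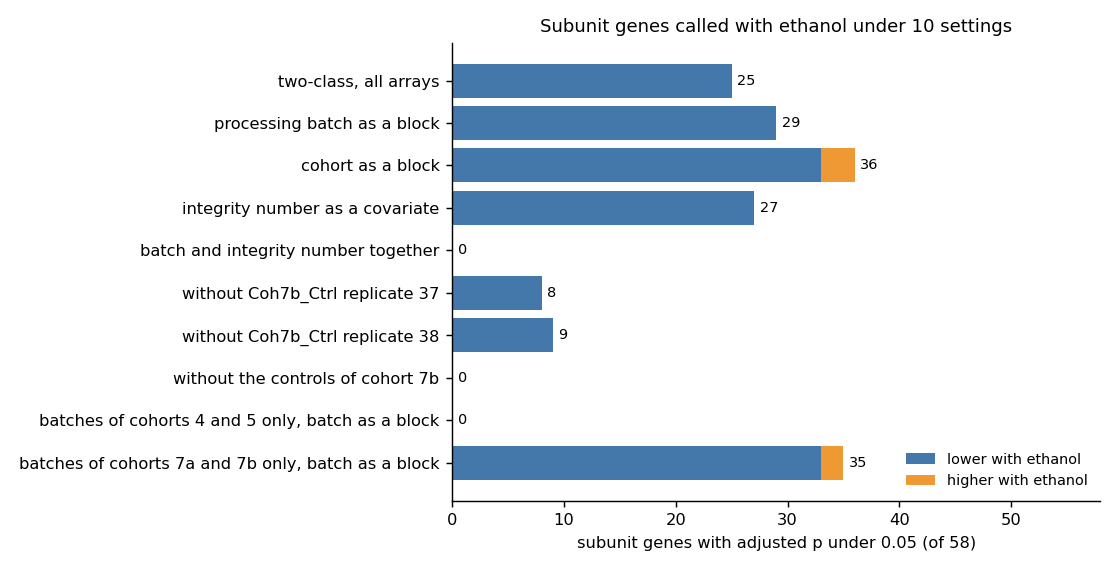
Number of the 58 subunit genes with a limma adjusted p under 0.05 (x axis) under 10 settings (y axis), lower with ethanol in blue and higher in orange. The count is 25 over all arrays, 0 without the controls of cohort 7b and 0 in the batches of cohorts 4 and 5.

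Within cohorts the subunit genes behaved differently. In cohort 5, none of the 58 was called, the background being 0% of all probesets at an adjusted p under 0.05 and 3.03% at an unadjusted p under 0.05, which none of the subunit genes reached. Their median difference there was 0.00, with a range from -0.15 to 0.18 and standard errors between 0.04 and 0.17. In cohort 7a, 30 genes fell and 5 rose, against 20.3% of all probesets lower, 10.6% higher and 30.9% in either direction, and the median difference was -0.17. In cohort 7b, 39 fell and 2 rose, against 26.1% lower, 14% higher and 40.1% in either direction, and the median difference was -0.48. All 3 values come from 1 limma fit with a mean for each of the 7 groups and 1 spread pooled over them. In cohorts 7a and 7b alone with batch as a block, 18 fell in cohort 7a and 32 in cohort 7b, against 9.56% and 13.8% of all probesets, and NDUFV3 alone rose in each. Genes whose drinkers all lay below the controls numbered 17 in cohort 7a (29.3%, against 6.49% of all probesets), 37 in cohort 7b (63.8%, against 27.6%) and 0 in cohort 5 (against 0.0621%). Drinkers all lay above the controls in cohort 7b for 3 genes, NDUFS8, NDUFV3 and COX8A (5.17%, against 15.6% of all probesets). In cohort 7a this was so for 0 genes (against 4.55%), as in cohort 5 (against 0.104%).

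**Figure D2:**
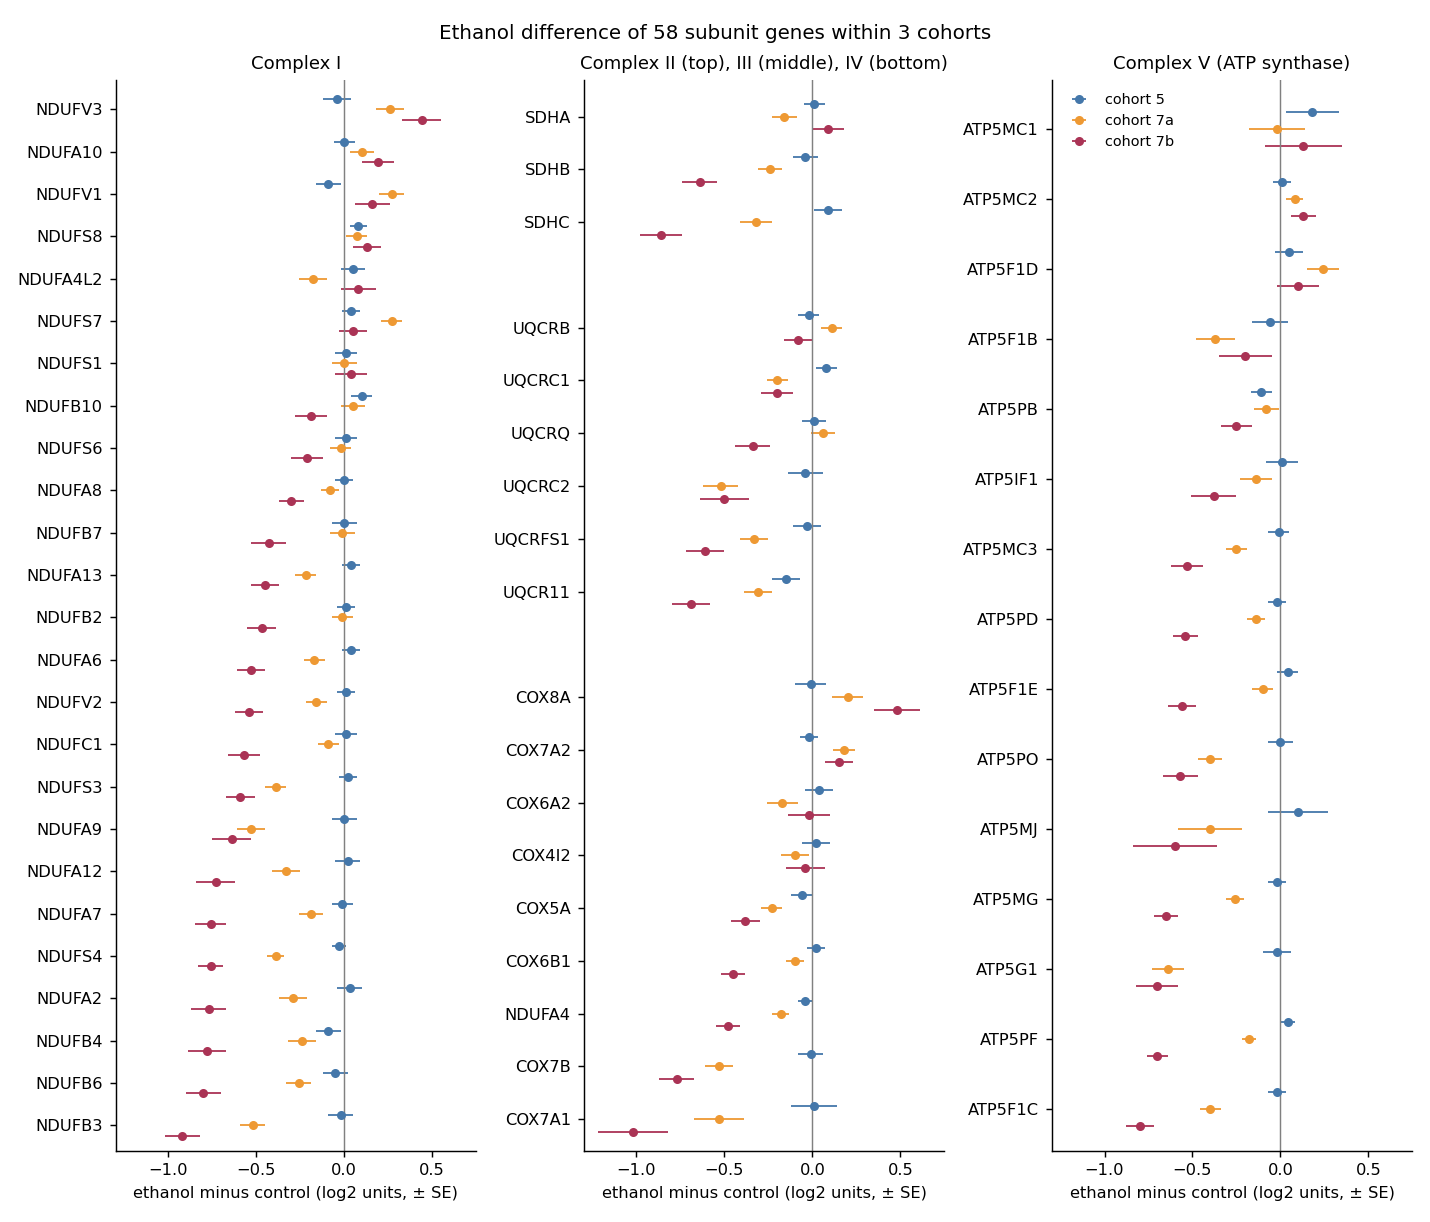
Ethanol minus control difference in log2 units (x axis, points with SE) for each of the 58 subunit genes (y axis) in cohorts 5, 7a and 7b, ordered within a complex by the difference in cohort 7b. Cohort 5 lies between -0.15 and 0.18, while cohort 7b reaches from -1.02 for COX7A1 to 0.48 for COX8A.

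The difference between cohorts was itself tested. For the cohort 7a minus cohort 5 difference in the ethanol effect, 16 subunit genes were more negative in cohort 7a, against 9.31% of all probesets, and 2 were more positive, NDUFV1 and NDUFS7, against 5.17%. For the cohort 7b minus cohort 7a difference, 22 were more negative in cohort 7b, against 6.84% of all probesets, and none was more positive, against 3.09% (9.94% in either direction). Both controls of cohort 7b stood above all 4 controls of cohort 7a for the mean of the subunit genes, each gene centred over the 43 arrays, at 0.45 and 0.49 against 0.12 to 0.26. The drinkers of the cohorts lay closer, at -0.03 to 0.15 in cohort 7b and -0.03 to 0.07 in cohort 7a. The controls of cohort 7b were in batches 6 and 7, while 3 of its 5 drinkers were in batch 8, which held no control, so 1 batch, the 6th, held both a control and a drinker of cohort 7b. In the batch-adjusted values the controls of cohort 7b were at 0.18 and 0.23, against 0.06 to 0.11 for those of cohort 7a.

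**Figure D3:**
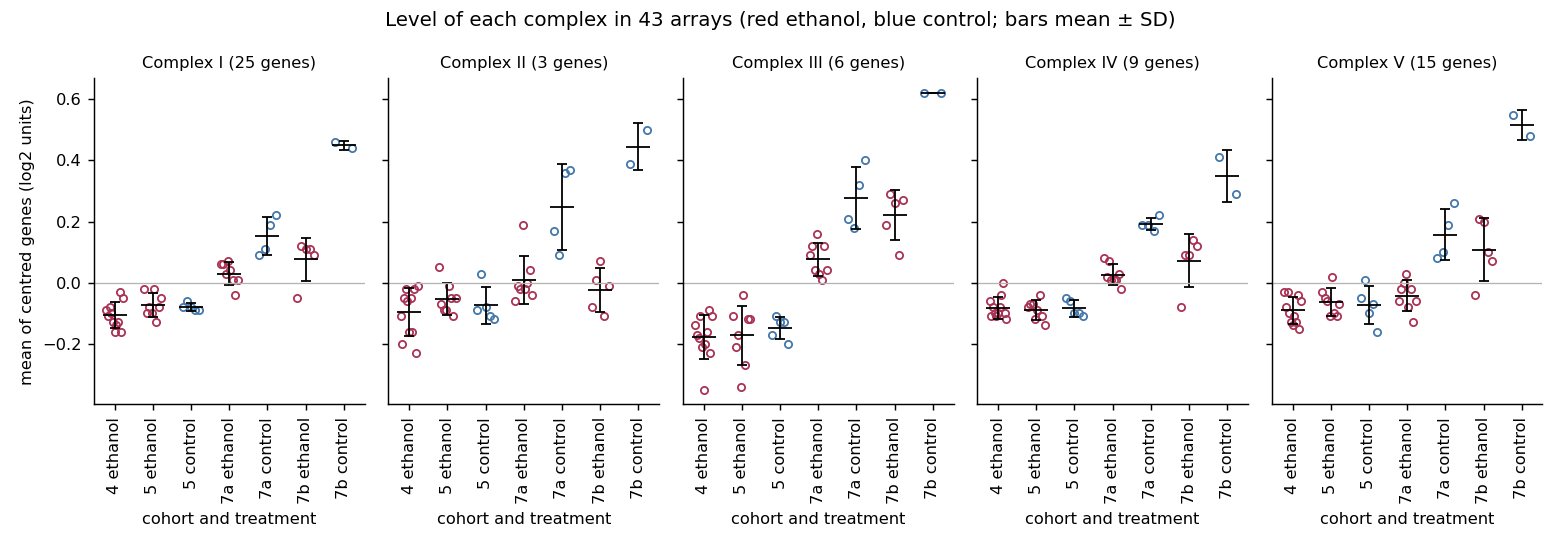
Mean of the centred genes of each complex in log2 units (y axis) for each of the 43 arrays, by cohort and treatment (x axis), with ethanol in red, control in blue and bars for mean ± SD. In cohort 5 drinkers and controls overlap for every complex, and in cohort 7b the 2 controls lie above the 5 drinkers for every complex.

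Complex I takes electrons from NADH through a peripheral arm of flavin and iron-sulfur subunits. Of its 6 core subunits measured, NDUFS3 and NDUFV2 fell in both cohorts 7a and 7b, while NDUFV1, NDUFS1, NDUFS7 and NDUFS8 fell in neither at their brightest probeset. The other probeset of NDUFS1 was lower in both cohorts (-0.22, adjusted p = 0.0325, and -0.92, adjusted p = 1.02e-08), as was that of NDUFS8 (-0.24, adjusted p = 0.00979, and -0.26, adjusted p = 0.0301). The other probeset of NDUFV2, at a mean of 9.1, passed in neither (-0.15, adjusted p = 0.274, and -0.03, adjusted p = 0.902). NDUFS3, a core subunit of the peripheral arm, measured 11.36, 11.46, 11.61 and 11.63 in the controls of cohort 7a, and from 11.03 over a median of 11.11 to 11.29 in its drinkers. In cohort 7b it measured 11.76 and 11.87 in the controls and 11.13, 11.22, 11.23, 11.24 and 11.28 in the drinkers. All 13 drinkers of these cohorts were below all 6 controls, which was so for 2 of the 58 genes (the other was NDUFA9), against 2.57% of all probesets. The differences of NDUFS3 were -0.39 ± 0.06 (SE, adjusted p = 1.64e-06) in cohort 7a and -0.59 ± 0.08 in cohort 7b (adjusted p = 4.58e-08), and its two-class difference was -0.30 ± 0.10 (adjusted p = 0.0292). In cohort 5 it measured from 10.75 to 10.84 in controls and from 10.68 to 10.93 in drinkers, a difference of 0.02 ± 0.05. With batch as a block in cohorts 7a and 7b, NDUFS3 passed in both cohorts and NDUFV2 in cohort 7b, but not in cohort 7a (-0.20 ± 0.09, adjusted p = 0.130).

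NDUFV1, which binds the flavin that accepts electrons from NADH, went the other way in cohort 7a. Its controls there measured 9.61, 9.74, 9.79 and 9.90, and its drinkers from 9.86 over a median of 10.04 to 10.21. The lowest 2 drinkers, at 9.86 and 9.88, were within the range of the controls. The difference was 0.27 ± 0.07 (adjusted p = 0.00477) in cohort 7a, 0.16 ± 0.10 (adjusted p = 0.209) in cohort 7b and -0.09 ± 0.07 in cohort 5. NDUFS7, the iron-sulfur subunit next to the coenzyme Q site, differed by 0.27 ± 0.06 in cohort 7a (adjusted p = 0.000466) and by 0.05 ± 0.08 in cohort 7b. With batch as a block in cohorts 7a and 7b, neither passed (adjusted p = 0.0896 for NDUFV1 and 0.0806 for NDUFS7 in cohort 7a). The other probeset of NDUFS7, at a mean of 6.91, was negative in both cohorts without passing (-0.24, adjusted p = 0.143, and -0.28, adjusted p = 0.21). NDUFS1 differed by 0.00 ± 0.07 in cohort 7a and 0.04 ± 0.09 in cohort 7b, and NDUFS8 by 0.07 ± 0.06 and 0.13 ± 0.08.

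The supernumerary subunits of complex I surround the core and serve its assembly and stability. Of 18 such genes, 10 fell in cohort 7a and 15 in cohort 7b, where 20.3% and 26.1% of all probesets were lower. NDUFS4, a small subunit of the peripheral arm whose loss causes severe brain disease, measured 11.26, 11.33, 11.41 and 11.44 in the controls of cohort 7a and from 10.84 over a median of 10.97 to 11.12 in its drinkers. In cohort 7b, its controls measured 11.90 and 12.05 and its drinkers 11.05, 11.19, 11.24, 11.29 and 11.31. Drinkers and controls did not overlap in either cohort, although the drinkers of cohort 7b reached the range of the controls of cohort 7a. NDUFS4 fell by 23.6% in cohort 7a (-0.39 ± 0.05, adjusted p = 8.16e-08) and fell by 41% in cohort 7b (-0.76 ± 0.07, adjusted p = 6.90e-12). In cohort 5, NDUFS4 measured from 11.16 to 11.26 in controls and from 11.09 over 11.18 to 11.24 in drinkers, with overlap.

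NDUFB3 and NDUFB4, subunits of the membrane arm, also fell in both cohorts. NDUFB3 fell by 30.4% in cohort 7a (-0.52 ± 0.07, adjusted p = 5.41e-07) and fell by 47.3% in cohort 7b (-0.92 ± 0.10, adjusted p = 6.71e-10), the steepest fall of complex I in that cohort. NDUFB4 differed by -0.24 ± 0.08 (adjusted p = 0.0187) and -0.78 ± 0.11 (adjusted p = 1.28e-07), and NDUFA10 by 0.10 ± 0.07 and 0.19 ± 0.09 without passing. The other probeset of NDUFA10, at a mean of 7.42, differed by 0.03 in cohort 7a and was higher in cohort 7b (0.22, adjusted p = 0.0497). NDUFV3 is a small subunit next to the flavin site and was the exception. Its controls in cohort 7a measured 6.23, 6.49, 6.62 and 6.64 and its drinkers from 6.58 over 6.75 to 6.91. In cohort 7b its controls were at 6.30 and 6.39, below all 5 drinkers at 6.68, 6.69, 6.70, 6.85 and 6.98. NDUFV3 rose by 0.26 ± 0.08 (adjusted p = 0.0134) and 0.44 ± 0.11 (adjusted p = 0.00147), and with the batch block by 0.36 ± 0.09 (adjusted p = 0.0119) and 0.36 ± 0.12 (adjusted p = 0.0497). NDUFA4L2, a paralogue of NDUFA4, was dim at a mean of 6.35 and did not pass in any cohort. With the batch block, 6 of the 18 supernumerary genes were lower in cohort 7a and 13 in cohort 7b. The shares of all probesets lower in that fit were 9.56% and 13.8%. NDUFS4 and NDUFB3 were lower in both cohorts, and NDUFB4 no longer passed in cohort 7a (adjusted p = 0.0756).

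Complex II, succinate dehydrogenase, also serves the citrate cycle. Its iron-sulfur subunit SDHB and its membrane anchor SDHC fell, while its catalytic flavoprotein SDHA did not pass in any comparison. SDHC measured 8.76, 8.77, 9.22 and 9.30 in the controls of cohort 7a and from 8.58 over a median of 8.66 to 9.01 in its drinkers, with overlap, 2 controls being far above the others. In cohort 7b, its controls were at 9.35 and 9.64 and its drinkers at 8.41, 8.62, 8.64, 8.67 and 8.86, without overlap. SDHC fell by 19.7% in cohort 7a (-0.32 ± 0.09, adjusted p = 0.00563) and fell by 44.9% in cohort 7b (-0.86 ± 0.12, adjusted p = 2.59e-07). The second probeset of SDHC, dimmer at a mean of 5.52, passed in neither (0.0, adjusted p = 0.981, and 0.16, adjusted p = 0.341). SDHB differed by -0.24 ± 0.07 (adjusted p = 0.0102) and -0.64 ± 0.10 (adjusted p = 1.03e-06). SDHA measured 11.12, 11.15, 11.19 and 11.26 in the controls of cohort 7a against 10.90 to 11.18 in its drinkers (-0.16 ± 0.07, adjusted p = 0.0689), and differed by 0.09 ± 0.09 in cohort 7b. The falls of SDHB and SDHC in both cohorts also passed with the batch block.

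Complex III hands electrons from coenzyme Q to cytochrome c. Its core subunits UQCRC1, UQCRC2 and UQCRFS1 all fell in cohort 7a, and UQCRC2 and UQCRFS1 also in cohort 7b. The brightest probeset of UQCRC1 did not pass in cohort 7b (-0.2, adjusted p = 0.0647). Both its other probesets were lower there (-0.34, adjusted p = 0.0431, and -1.13, adjusted p = 1.61e-12). UQCRFS1, the Rieske iron-sulfur protein, measured 10.75, 10.82, 10.95 and 11.03 in the controls of cohort 7a and from 10.40 over 10.54 to 10.84 in its drinkers. In cohort 7b its controls were at 11.14 and 11.39 and its drinkers at 10.25, 10.69, 10.69, 10.79 and 10.88. Within each cohort, only the highest drinker of cohort 7a reached the range of its controls. The difference was -0.33 ± 0.08 in cohort 7a (adjusted p = 0.00215), -0.61 ± 0.11 in cohort 7b (adjusted p = 3.45e-05) and -0.03 ± 0.08 in cohort 5. UQCRC2 differed by -0.52 ± 0.10 in cohort 7a (adjusted p = 0.000198) and -0.50 ± 0.14 in cohort 7b (adjusted p = 0.00442). UQCR11, a small subunit of the complex, changed by -0.31 ± 0.08 and -0.69 ± 0.11 in cohorts 7a and 7b (both called lower) and differed by -0.15 ± 0.08 in cohort 5 (adjusted p = 1), where the lowest of its drinkers was at 11.13 and the others between 11.44 and 11.66. The second probeset of UQCR11, at a mean of 6.36, differed by -0.09 in cohort 7a and -0.08 in cohort 7b without passing. The brightest probeset of UQCRB, a subunit near the coenzyme Q site, differed by 0.11 ± 0.06 in cohort 7a and -0.08 ± 0.08 in cohort 7b without passing. Its 3 other probesets were between -0.45 and -0.23 in cohort 7a and between -0.53 and -0.37 in cohort 7b, with 2 called lower in each cohort. With the batch block, UQCRC1 no longer passed in cohort 7a (adjusted p = 0.209), nor UQCRC2 and UQCRFS1 in cohort 7b (adjusted p = 0.178 and 0.0942).

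Complex IV, cytochrome c oxidase, reduces oxygen. COX7B, COX7A1, COX5A and NDUFA4 fell in cohorts 7a and 7b and in the two-class comparison. COX7B, a small nuclear-encoded subunit, measured 12.22, 12.36, 12.45 and 12.52 in the controls of cohort 7a and from 11.66 over a median of 11.84 to 12.02 in its drinkers. In cohort 7b its controls were at 12.92 and 13.13 and its drinkers at 11.90, 12.05, 12.37, 12.44 and 12.55. Drinkers and controls were apart in both cohorts, and in cohort 5 they overlapped at 11.88 to 12.07 in drinkers and 11.88 to 12.13 in controls. COX7B fell by 30.5% in cohort 7a (-0.53 ± 0.08, adjusted p = 1.76e-06) and fell by 41.3% in cohort 7b (-0.77 ± 0.10, adjusted p = 1.39e-07). COX7A1, the isoform best known from heart and skeletal muscle, fell by 30.6% in cohort 7a and fell by 50.7% in cohort 7b (-1.02 ± 0.20, adjusted p = 4.29e-05), the largest fall of any subunit gene there. Its controls in cohort 7a were uneven, at 9.92, 10.04, 10.12 and 10.91. NDUFA4, once counted as a complex I subunit, differed by -0.18 ± 0.05 and -0.48 ± 0.07, and COX5A by -0.23 ± 0.06 and -0.38 ± 0.08. With the batch block, COX7B alone passed in cohort 7a, COX7A1 being at -0.54 ± 0.20 (adjusted p = 0.0792), and COX5A passed in neither cohort.

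COX8A and, at its brightest probeset, COX7A2 did not follow. COX8A measured 8.92 and 9.05 in the controls of cohort 7b and 9.25, 9.38, 9.4, 9.57 and 9.75 in the drinkers, which all lay above. It rose by 0.48 ± 0.13 there (adjusted p = 0.00226), but not with the batch block (0.33 ± 0.20, adjusted p = 0.270). In cohort 7a it differed by 0.20 ± 0.09 (adjusted p = 0.107), with 1 control at 8.83 and the others between 9.41 and 9.62. COX7A2, the widely expressed counterpart of COX7A1, rose by 0.18 ± 0.06 in cohort 7a (adjusted p = 0.0105) and differed by 0.15 ± 0.08 in cohort 7b (adjusted p = 0.126), and with the batch block its adjusted p in cohort 7a was 0.160. The second probeset of COX7A2, at a mean of 7.91, was lower in both cohorts (-0.64, adjusted p = 0.000278, and -0.83, adjusted p = 0.000238). The isoforms COX4I2 and COX6A2, with means of 4.63 and 6.74, did not pass in any comparison.

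**Figure D4:**
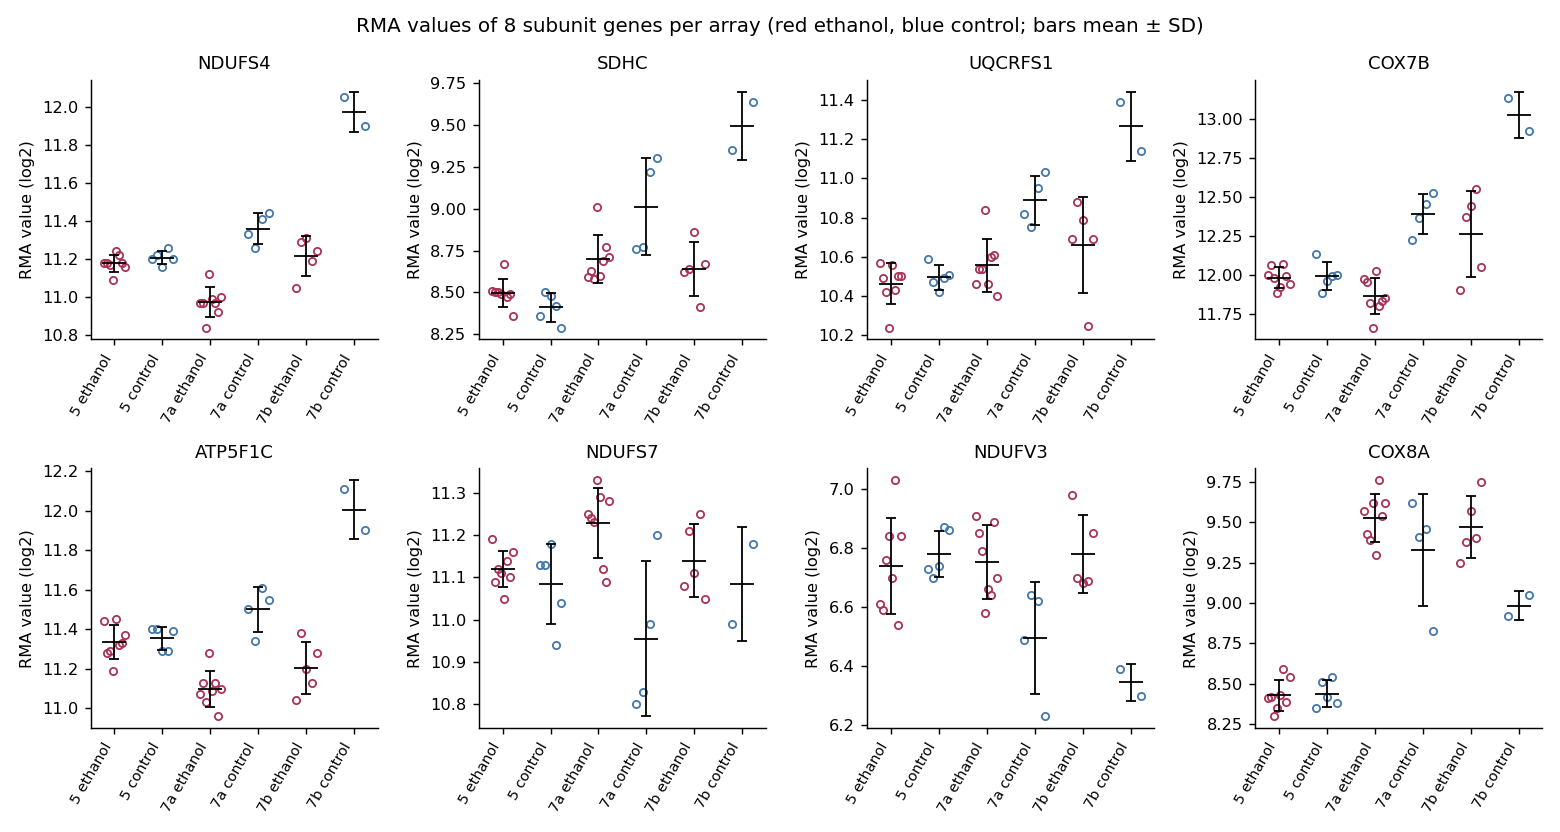
RMA values in log2 units (y axis) of 8 subunit genes in each array of cohorts 5, 7a and 7b by treatment (x axis), ethanol in red, control in blue, bars for mean ± SD. NDUFS4, COX7B and ATP5F1C do not overlap between drinkers and controls in cohorts 7a and 7b, and NDUFV3 is higher in all drinkers of cohort 7b than in its controls.

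ATP synthase has a catalytic F1 head, a ring of c subunits and a peripheral stalk that holds them together. The 4 stalk genes fell in cohort 7b, and 3 of them in cohort 7a, where 26.1% and 20.3% of all probesets were lower. ATP5F1C, the gamma subunit that turns inside the head, measured 11.34, 11.50, 11.55 and 11.61 in the controls of cohort 7a and from 10.96 over 11.10 to 11.28 in its drinkers. In cohort 7b its controls were at 11.90 and 12.11 and its drinkers at 11.04, 11.13, 11.20, 11.28 and 11.38. Drinkers and controls were apart in both cohorts. It fell by 24.2% in cohort 7a (-0.40 ± 0.06, adjusted p = 1.69e-06) and fell by 42.6% in cohort 7b (-0.80 ± 0.08, adjusted p = 1.68e-10), and its two-class difference was -0.27 ± 0.06 (adjusted p = 0.00333). ATP5F1B, the catalytic beta subunit, fell in cohort 7a (-0.37 ± 0.11, adjusted p = 0.0104) and differed by -0.20 ± 0.15 in cohort 7b (adjusted p = 0.333). ATP5F1D, the delta subunit of the head, rose by 0.24 ± 0.09 in cohort 7a (adjusted p = 0.0361) and differed by 0.10 ± 0.12 in cohort 7b. With the batch block, neither ATP5F1B (adjusted p = 0.180) nor ATP5F1D (adjusted p = 0.242) passed in cohort 7a, while ATP5F1C passed in both cohorts. Of the stalk genes, 1 was then lower in cohort 7a and 3 in cohort 7b, against 9.56% and 13.8% of all probesets.

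The c subunit is encoded by several genes whose mature proteins are alike. ATP5MC3 was lower, by -0.25 ± 0.06 in cohort 7a (adjusted p = 0.00280) and -0.53 ± 0.09 in cohort 7b (adjusted p = 4.25e-06). The gene listed under the older symbol ATP5G1 measured 11.35, 11.46, 11.53 and 11.78 in the controls of cohort 7a and from 10.69 over 10.87 to 11.15 in its drinkers, which were all lower. It fell by 36% in cohort 7a (-0.64 ± 0.09, adjusted p = 5.31e-07), the largest fall of any subunit gene in that cohort, and fell by 38.7% in cohort 7b. A dimmer probeset under the symbol ATP5G1, at a mean of 5.4, has a different gene identifier. It differed by 0.13 in cohort 7a (adjusted p = 0.311) and by -0.01 in cohort 7b without passing. ATP5MC1, of which ATP5G1 is the former name, is listed apart with another gene identifier and differed by -0.02 ± 0.16 and 0.13 ± 0.22, and ATP5MC2 by 0.08 ± 0.05 and 0.13 ± 0.07. Near-identical copies could share signal among these probesets, so their assignment is uncertain. Chosen after their values were seen, ATP5PF and ATP5MG, of the stalk and the membrane part, fell in cohort 7b (-0.70 ± 0.06, adjusted p = 3.52e-12, and -0.65 ± 0.07, adjusted p = 2.31e-09), as did the inhibitor ATP5IF1 (-0.38 ± 0.13, adjusted p = 0.0170).

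Probesets of the same gene did not always move together. For 29 of the 58 genes more than 1 probeset was measured, and in cohort 7a their calls were the same for 6 genes and differed for 23. In 6 genes, ATP5F1B, ATP5F1C, COX7A2, NDUFB4, NDUFB6 and NDUFV3, probesets passed in opposite directions. The second probeset of ATP5F1B rose by 0.87 in cohort 7a (adjusted p = 3.12e-05) and by 1.15 in cohort 7b, while the brighter one fell in cohort 7a. That of NDUFB4 rose by 0.74 in cohort 7a (adjusted p = 1.28e-06) at a mean of 6.97, against 11.92 for the brighter one. The second probeset of COX7A2 was lower in cohort 7a (-0.64, adjusted p = 0.000278), and so was that of NDUFV3, at a mean of 4.59 (-0.48, adjusted p = 0.00631). Over the 39 probesets not used at the gene level, with a median level of 7.53 against 11.03 for those used, 17 (43.6%) fell and 5 rose in cohort 7a, where 20.3% of all probesets were lower and 10.6% higher. Where on a transcript each probeset lies was not analysed here, and the part of truncated RNA in these differences was not tested.

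**Figure D5:**
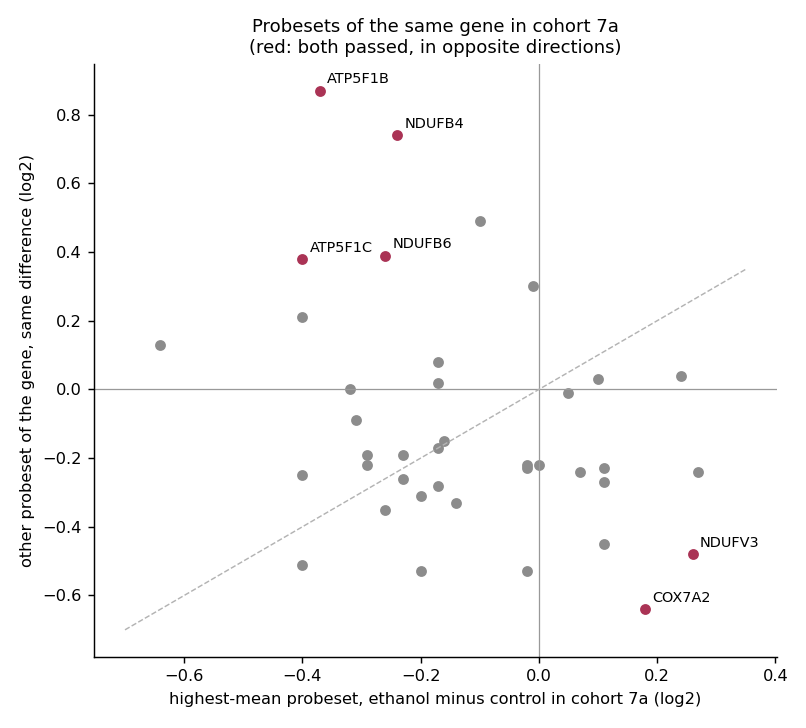
Ethanol minus control difference in cohort 7a, in log2 units, of the brightest probeset of a gene (x axis) and of each other probeset of that gene (y axis), for 29 genes and 39 pairs, with the dashed line at equality. Red points mark the 6 genes whose probesets passed in opposite directions, with ATP5F1B at -0.37 and 0.87.

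Apart from treatment, the subunit genes varied together in part. After the group means were removed, the correlation of each gene with the mean of the other 57 had a median of 0.450 over the 24 arrays of cohorts 4 and 5 and of 0.428 over the 19 arrays of cohorts 7a and 7b. It was above 0.5 for 22 and 21 genes, for 11 of them in both sets, and below 0 for 9 in each set, 4 of them the same genes. NDUFV3 ran against the others in both, at -0.539 and -0.585. These are descriptions over arrays that share batches and RNA quality. Among the 19 drinkers of cohorts 4 and 5, the mean of the subunit genes followed the RNA integrity number (Pearson r = 0.633, Spearman rho = 0.687, r = 0.622 without the 2 most extreme animals, r = 0.771 within batches), and the actin value at r = -0.636. Among the 13 drinkers of cohorts 7a and 7b these correlations were -0.0566 and -0.224. With cohort means removed and treatment kept, the genes outside the set that were most like the mean of the subunit genes over the 43 arrays were LOC707476 (r = 0.957), CCL25 (r = 0.937), MRPL32 (r = 0.935), TMEM70 (r = 0.934) and LYSMD2 (r = 0.934), as the probe table names them. MRPL32 is a protein of the mitochondrial ribosome, and TMEM70 is an assembly factor of ATP synthase.

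Drinkers were also compared with each other, by cohort and by intake. Between the drinkers of cohort 5 and cohort 4, which shared batches, no subunit gene was called, against 0% of all probesets, and 2, SDHC and ATP5MC1, had an unadjusted p under 0.05, against 3.76% of all probesets. For ethanol intake among the 32 drinkers, no subunit gene was called either, against 0% of all probesets, and 2 had an unadjusted p under 0.05, against 2.1%. Those were COX4I2 and ATP5MC1, with adjusted p = 1.

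Other genes of the pathway, from a list of 89 of which 63 were measured, were called in the two-class comparison in 18 cases lower and 4 higher, where 10.6% of all probesets were lower and 5.57% higher. Among 37 assembly factors, which build the complexes without staying in them, 10 were lower and 1, UQCC1 of complex III, was higher at 0.26, a call lost with batch as a block (adjusted p = 0.0584). TMEM126B, needed to build the membrane arm of complex I, differed by -0.41 (adjusted p = 0.0169), COA6 of complex IV by -0.31 (adjusted p = 0.00143) and TMEM70 by -0.30 (adjusted p = 0.00517). In cohort 7b, 26 of these 37 fell and 2 rose, where 26.1% of all probesets were lower and 14% higher, and in cohort 5 none was called. The cytochrome c1 gene CYC1 of complex III fell (-0.17, adjusted p = 0.0206). Of 9 regulators, the mitochondrial transcription factor TFAM (-0.22, adjusted p = 0.00836), GABPA and MTERF1 fell, PPARGC1B (0.27, adjusted p = 0.00289) and NRF1 (0.17, adjusted p = 0.0354) rose, and PPARGC1A differed by 0.04 (adjusted p = 0.647). Of 9 citrate cycle genes, SUCLA2, SUCLG2 and IDH3B fell and citrate synthase, CS, rose by 0.18, a call also lost with that block (adjusted p = 0.0597). Of 7 genes of coenzyme Q synthesis, COQ3 alone passed, at -0.19.

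Markers of cell types were read beside these results. Neuron markers were measured by 5 of 9 listed genes and 1 of them, GAD2, was higher in drinkers, by 1.51 in cohort 7a and 2.22 in cohort 7b, while SYT1, STMN2, SLC17A7 and GAD1 did not pass in any cohort. The mean level of the neuron list, GAD2 included, ranged from 10.93 to 11.12 in the drinkers of cohort 7a and from 10.51 to 10.80 in its controls, and from 10.96 to 11.30 against 10.58 to 10.74 in cohort 7b. All 7 microglia markers were measured, and P2RY12 and AIF1 fell in the two-class comparison and in cohorts 7a and 7b, CX3CR1 also in cohort 7a, while CSF1R rose in cohort 7b, with a list level from 6.94 to 7.28 in drinkers and from 7.25 to 7.62 in controls of cohort 7a. Of 4 measured astrocyte markers, GFAP and SLC1A2 were higher in cohort 7b and SLC1A2 in cohort 7a. Of 3 measured oligodendrocyte markers CNP was higher in cohort 7b, and of 5 measured vessel markers CLDN5 and PECAM1 were lower there. The astrocyte list ranged from 11.85 to 12.20 in drinkers and 11.90 to 12.04 in controls of cohort 7a, the oligodendrocyte list from 10.96 to 11.91 and 11.00 to 11.79, and the vessel list from 7.26 to 7.52 and 7.16 to 7.59. In cohort 7b the drinkers and controls were apart for astrocytes, at 11.86 to 11.97 against 11.48 to 11.50, and for microglia, at 7.04 to 7.31 against 7.40 to 7.47. The oligodendrocyte list there was at 10.90 to 11.93 against 11.36 in both controls, and the vessel list at 6.99 to 7.60 against 7.28 to 7.37. No marker was called in cohort 5. The part of cell type composition in the levels of the subunit genes was not tested.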

How the data were processed

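Medial PFC RNA of 43 animals was hybridized by the authors to Affymetrix Rhesus Macaque Genome Arrays. The deposited values are log2 RMA values, background-corrected and quantile-normalized together by the authors with the affy package and not adjusted for batch. They ranged from 2.27 to 15.18, and precision is limited by how few controls there were. After 99 control probesets, 27449 probesets without a gene symbol and those dim (below 3.5) on 80% or more of the arrays had been left out, 24151 of 52865 were tested. The 8 processing batches were recovered from the study's batch-adjusted values, which an empirical Bayes adjustment for these batches matched within 5.00e-05 over 912 probesets. Groups were taken from the labels. Integrity numbers (42 animals) and intake came from the study's supplement as covariates. Tests used limma 3.58.1 in R 4.3.3 and were tested on simulated data, and permutation tests used scipy 1.17.1. The two-class design follows the study's methods. The study corrected its RMA values for batch, while the main fit here used the deposited values without that correction. The threshold was an adjusted p of 0.05, where the study used 0.01.

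Animals are separate, and p-values measure the spread between them. In the fit of 7 groups this spread was 1 estimate per probeset, pooled over all 43 arrays. The p-values of cohort 7b thus do not rest on the spread of its own 5 drinkers and 2 controls alone. The median standard error of the subunit genes in cohort 7b was 0.09 in that fit. It was 0.14 in the arrays of cohorts 7a and 7b with batch as a block. Named genes were core subunits and isoforms listed by name, and within each complex the 3 smallest p in each direction and the 2 smallest for cohort 7a minus cohort 5. Any other subunit gene named (such as NDUFA9, NDUFB6, ATP5PF, ATP5MG and ATP5IF1) was chosen after its values were seen. Genes and lists were chosen with earlier results of these data known. Alternatives were batch, cohort and integrity terms, batch-adjusted values, subsets of animals, filtering, centring, moderation and averaging of probesets.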

Additional observations from a re-analysis of the deposited data

Results flagged for a closer look

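Of 175 sets of values (35 named genes in each group of 4 to 10 animals), 12 held an animal far from the others, and chance gives about 1 in 20. In drinkers of cohort 7a, replicate 32 was high for NDUFS3 (11.29, the others 11.03 to 11.14), SDHC (9.01, the others 8.58 to 8.77) and UQCRFS1 (10.84, the others 10.40 to 10.61). In its controls, replicate 25 was at 4.99 for COX4I2 and at 10.66 for ATP5F1D, and replicate 26 at 10.28 for SDHB. In drinkers of cohort 5, replicate 20 was at 10.24 for UQCRFS1 and 11.13 for UQCR11, and replicate 21 at 8.67 for SDHC. Control replicate 15 of cohort 5 was at 10.87 for ATP5F1D. In drinkers of cohort 7b, replicate 42 was at 11.17 for ATP5F1B (the others 11.90 to 12.11) and replicate 41 at 10.61 for ATP5MC1 (the others 9.36 to 9.63).

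The ethanol difference in cohort 7a minus that in cohort 5 passed the limma test for 18 of the 58 genes. It was negative for ATP5G1 (-0.62), NDUFA9 (-0.53), COX7B (-0.51), NDUFB3 (-0.50), UQCRC2 (-0.47), NDUFS3 (-0.41), SDHC (-0.41), ATP5PO (-0.40), ATP5F1C (-0.38), NDUFS4 (-0.36), NDUFA12 (-0.35), NDUFA2 (-0.32), UQCRC1 (-0.29), NDUFA13 (-0.26), ATP5MG (-0.24) and ATP5PF (-0.22), and positive for NDUFV1 (0.37) and NDUFS7 (0.23). Adjusted p ran from 0.000277 for NDUFS4 to 0.0415 for NDUFS7. With the integrity number in the model, 18 of the 58 were more negative and 3 more positive in cohort 7a, among 3188 probesets called in all.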

How the results depend on the processing

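Over all arrays, 25 of the 58 genes were called, with a median difference of -0.15. Counts stayed within 1.5 times with batch (29) or cohort (36) as a block, the integrity number (27) and batch-adjusted values (20, with 3852 probesets in all). They also did with array centring (17, 2 of them higher, 3064 in all) and all probesets of a gene averaged (24, 1 of them higher, 2494 in all). The same held with no filter (25, 3918 in all) and trended robust moderation (25, 3901 in all). Counts moved to 0 with batch and integrity number together, 10 without cohort 4 and 0 in the batches of cohorts 4 and 5 alone. Fits with the integrity number lack control replicate 37 of cohort 7b. After the data were seen, leaving out both controls of cohort 7b was added, which gave 0, and 1 with batch as a block (762 in all). Medians moved to -0.06 (batch and integrity number), -0.09 (batch-adjusted), -0.01 (batches of cohorts 4 and 5), -0.30 (batches of cohorts 7a and 7b), -0.08 (centring), and -0.07 and -0.06 without those controls. The cause of these changes was not tested. Leaving out 1 animal of the groups of 2 to 5 (the 11 controls and the 5 drinkers of cohort 7b) gave 8 to 29 calls and medians of -0.17 to -0.11, and with a batch block and controls only, added later, 10 to 33 and -0.16 to -0.09, lowest without control replicate 37 of cohort 7b. In cohort 7a, 35 calls became 22 with that cohort alone (5233 in all) and 15 with a batch block too (3288 in all). A joint fit with cohort 7b and batch, added later, gave 19 (3589 in all). In cohort 7b, 41 calls became 34 with that cohort alone (6620 in all) and 33 in the joint fit (5079 in all). Leaving out 1 of the same 16 animals gave 24 to 36 in cohort 7a, 37 to 43 in cohort 7b, 0 in cohort 5 and 12 to 23 for cohort 7a minus cohort 5. Pathway genes outside the set went from 22 to 34 with cohort as a block. Among named genes called in either setting, signs turned for SDHC and COX7A1 (both 0.02) in the batches of cohorts 4 and 5, for NDUFV1 (0.24) in those of cohorts 7a and 7b, and with averaged probesets for ATP5F1B (0.20), NDUFB4 (0.10), ATP5F1C (0.00) and UQCRB (-0.15). Values called in neither setting also turned, such as NDUFS1 (0.02) and NDUFV1 (0.09) with a batch block. No paired analysis was possible because each animal has a number of its own.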
